A study of Mus musculus with 3 samples.

Results

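The genes described are the immediate early and activity-induced regulators on a spotted mouse array: the Egr, Fos, Jun, Nr4a and Klf families, the Atf, Creb, Crem and Mef2 factors, the Dusp phosphatases, the Ier and Phlda genes, Arc and Bdnf. They were chosen by gene symbol alone, and 85 of the 21766 gene spots matched, standing for 78 of 17202 symbols. No spot was named Jund or Npas4. The cells were N1E-115, a mouse neuroblastoma line, on 3 arrays with 2 colours each. Every array set cells given pEGFP-C1, a plasmid for the fluorescent protein EGFP alone, against cells given pEGFP-NaV1.2CT-Flag. The second plasmid encodes EGFP joined to a stretch of 229 residues from the C-terminal end of mouse NaV1.2, the sodium channel made from Scn2a, and is called NaV1.2CT below. Cells were transfected with polyethylenimine 24 h after plating, no selection of transfected cells is described, and RNA was taken 48 h after transfection from 3 pooled dishes. The labels put 1 array at 5 mM glucose and 2 arrays at 20 mM glucose, although low-glucose medium is what the growth protocol gives for all of them. EGFP RNA always carried Alexa555 and NaV1.2CT RNA always carried Alexa647, so dye and plasmid cannot be told apart. Separate cultures behind the arrays are not stated, so the p-values cover the spread among these 3 arrays and nothing wider.

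Immediate early genes are those whose transcription starts within minutes of a stimulus without new protein being made. In neurons, calcium entry and growth factors act through the ERK kinases on serum response factor, and through cAMP- and calcium-dependent kinases on CREB, and both lead to Fos, Egr and Nr4a transcription. The products are mostly transcription factors or, as with some of the Dusp phosphatases, enzymes that shut the same kinases off again.

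The values are log2 ratios of NaV1.2CT over EGFP after background correction and loess within each print block, and a negative value means a dimmer NaV1.2CT channel. Each array had 23232 spots, of which 1235 were empty. A spot counted as above background when its background-subtracted intensity passed the 95th percentile of the empty spots in each channel, as 91.5 to 92.4% of probes did on an array. Of the 85 spots 77 did so on all 3 arrays, where 89.8% of all probes did. Of 13 spots for N1E-115 markers (neuronal and noradrenergic genes), 13 were above background on all 3 arrays, as were 18 of 20 for markers of fibroblasts, glia, blood, liver and muscle. The median brightness percentile was 67.5 for the first and 56.2, 68.5 and 71.2 for fibroblast, glia, and blood, liver and muscle markers, so brightness did not set the labelled cell type apart from others. The Scn2a probe stood at 0.08 on the 5 mM array and at 0.11 and 0.13 on the 20 mM arrays (limma adjusted p = 0.105 over 3 arrays), and whether it covers the transfected stretch is not known. The deposited files number the 5 mM array in another array series than the 20 mM arrays, so glucose and array series cannot be told apart.

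Few of these regulators differed between NaV1.2CT and EGFP cells. At 20 mM and over 3 arrays 2 spots passed, too few to set their share apart from that among all probes. Phlda1 was higher with NaV1.2CT on every array, Klf2 was higher at 20 mM glucose, and Egr2 was lower over the 3 arrays. In limma fits at an adjusted p of 0.05 over 21761 probes, 2 of 85 spots passed at 20 mM, which is 2.35% against 2.11% of all probes. Both were higher, as were 0.689% of all probes, while 1.42% were lower. Over 3 arrays 1 spot rose and 1 fell, again 2.35%, against 3.85% of all probes (1.17% higher and 2.68% lower). In RNA of whole cultures, a change in fewer cells and a smaller change in all cells cannot be told apart. At an unadjusted p under 0.05 the share was 20.0% at 20 mM against 22.2% of all probes, and 21.2% against 24.0% over 3 arrays. The ratios of 23 spots (27.1%, against 21.8% of all probes) lay above 0 on all 3 arrays, those of 19 spots (22.4%, against 25.1%) below 0 on all 3, and those of 43 changed side between arrays. The median ratio of the 85 spots was 0.0055 on the 5 mM array and -0.0153 and 0.0207 on the 20 mM arrays. Only Phlda1 had a 3-array mean beyond 0.2 in size, 1.18% of the spots against 2.22% of all probes.

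**Figure D1:**
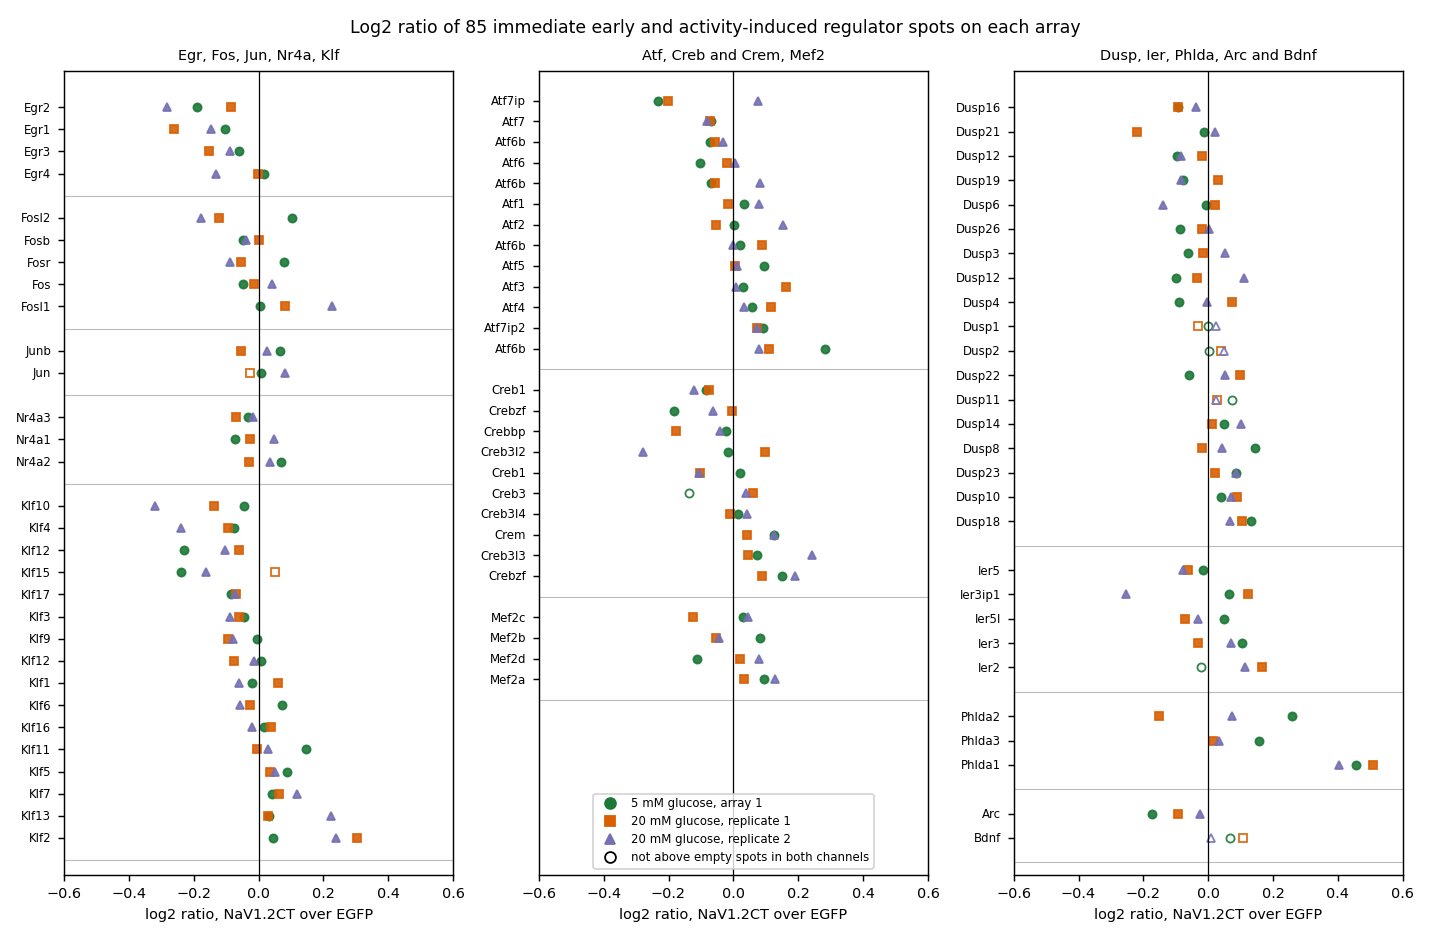
Log2 ratio of NaV1.2CT over EGFP (x axis) for each of the 85 spots (rows, by family and by mean) on the 5 mM array and both 20 mM arrays; hollow symbols mark arrays where the spot was not above background. Phlda1 lies between 0.40 and 0.51 on all 3 arrays, while most other spots scatter on both sides of 0.

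Between arrays the 85 spots kept their order only in part. The Spearman correlation of their ratios was 0.338 between the 5 mM array and the first 20 mM array, 0.400 with the second, and 0.420 between the 20 mM arrays, given as a description over spots that share these libraries. All probes gave 0.437, 0.322 and 0.501 in the same order. The SD of the ratios on an array was 0.11 to 0.12 for these spots and 0.10 to 0.11 for all probes. The standard error of a 3-array mean ran from 0.0336 to 0.0646 over the 85 spots, with a median of 0.0374. Each probe has 3 values, 1 from each array, and that number limits what a test can separate.

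Phlda1, an intracellular protein with a pleckstrin homology-like domain that is induced by growth factor and stress signals, gave the highest ratio of the set. Its raw intensity was 26350 in the EGFP channel and 45589 in the NaV1.2CT channel of the 5 mM array. On the 20 mM arrays it was 24961 against 44504 and 26335 against 44352. The NaV1.2CT channel was the brighter on every array and no EGFP value reached a NaV1.2CT value. Among very bright spots a brighter raw NaV1.2CT value is by itself no sign of a higher ratio. Klf2 read 33600 in the EGFP and 44938 in the NaV1.2CT channel at 5 mM, where its normalized ratio was 0.04. The normalized log2 ratios were 0.45 at 5 mM and 0.51 and 0.40 at 20 mM. The mean was 0.46 ± 0.073 (SD, n = 2) at 20 mM, with a limma adjusted p of 0.00931. Over the 3 arrays it was 0.45 ± 0.052 (SD, n = 3; 95% interval 0.37 to 0.54), a 1.37-fold ratio with a limma adjusted p of 0.00371. The 5 mM and 20 mM ratios differed by -0.0014 (95% interval -0.18 to 0.17).

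Phlda1 was also among the brightest probes, at the 99.3th percentile, where ratios of all probes rose above 0. Probes within 0.5 of its brightness A, the mean log2 intensity of both channels, had a median ratio of 0.0394 at 5 mM and of 0.0588 and 0.0556 at 20 mM. Phlda1 lay above 98.6%, 99.2% and 97.8% of them. After a second loess that removes this bend its 3-array ratio was 0.37 and still passed (adjusted p = 0.0239). The call ended with plain background subtraction (0.45, adjusted p = 0.0719), with the authors' net intensities (0.41, adjusted p = 0.0977) and with their deposited ratios (0.42, adjusted p = 0.0955), and median centring alone gave 1.06. The authors' deposited score, whose sign mostly but not always follows that of the ratio, was 2.17, 3.06 and 2.74 for Phlda1 on the 5 mM and the 20 mM arrays.

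The other genes of this family did not pass. Phlda2, an imprinted gene that limits placental growth, stood at 0.26 on the 5 mM array and at -0.15 and 0.07 on the 20 mM arrays. Phlda3, a p53 target that restrains Akt, stood at 0.16, 0.01 and 0.03. Their 3-array adjusted p-values were 0.608 and 0.328, and Phlda2 changed side between the 20 mM arrays.

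**Figure D2:**
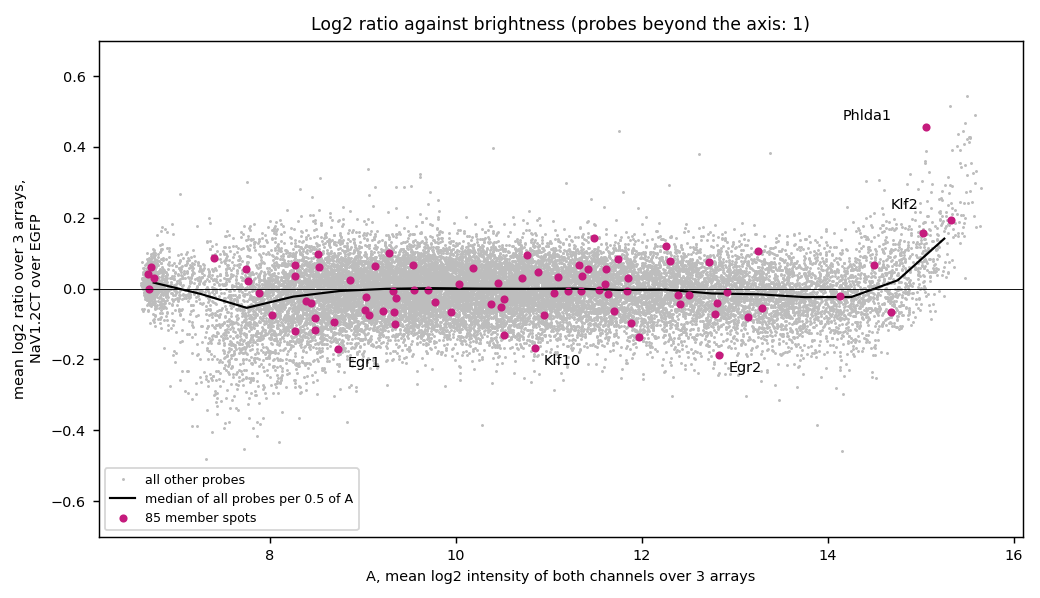
Mean log2 ratio over 3 arrays (y axis) against A, the mean log2 intensity of both channels (x axis), for all probes (grey) and the 85 spots (pink); the line is the median of all probes per 0.5 of A. The line bends upward at the bright end, where Phlda1 at 0.45 stands above it and Klf2 at 0.19 stands close to it.

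The Egr genes, zinc finger factors that bind GC-rich sites and are among the fastest neuronal responses, leaned towards lower ratios. Their median was -0.0824 at 5 mM and -0.120 and -0.139 at 20 mM, against -0.00418, -0.00469 and -0.00105 for all probes. Of the 4 genes 3 lay below 0 on all 3 arrays, as did 25.1% of all probes. Under every other way of processing or subset of arrays tried the family's median of means stayed below 0, from -0.166 to -0.0998. These settings reuse the same 3 arrays and are not independent of each other. With whole-array loess, and without the second 20 mM array, 3 of the 4 genes lay below 0. Without dim probes 3 genes were left, as Egr1 dropped out. Of the 4 genes 1 fell, in the 3-array comparison alone, where 2.68% of all probes fell.

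Egr2 (Krox20), known for hindbrain patterning and for driving myelination in Schwann cells, was that gene. Its raw intensity was 9802 in the EGFP channel and 7803 in the NaV1.2CT channel at 5 mM, and 7237 against 5951 and 7788 against 5604 at 20 mM. The EGFP channel was the brighter on each array, but it also was for the median probe before normalization. The normalized ratios were -0.19 at 5 mM and -0.09 and -0.28 at 20 mM. The 3-array mean was -0.19 ± 0.099 (SD, n = 3; 95% interval -0.28 to -0.09), a ratio of 0.879 with a limma adjusted p of 0.0484. This call stood next to the threshold. It ended without the 5 mM array (-0.18, adjusted p = 0.102), without the second 20 mM array (-0.14, adjusted p = 0.124), with the second loess (-0.17, adjusted p = 0.0596), with median centring (-0.10, adjusted p = 0.148), with plain subtraction (adjusted p = 0.184) and with the authors' net intensities and ratios (adjusted p = 0.210 and 0.193).

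Egr1 (Zif268), an immediate early factor long used as a marker of neuronal activity, gave nearly the same mean and lay just outside the threshold. Its ratios were -0.10 at 5 mM and -0.26 and -0.15 at 20 mM. The 3-array mean was -0.17 ± 0.082 (SD, n = 3; 95% interval -0.26 to -0.08; limma adjusted p = 0.0509), and the 20 mM mean was -0.20 (adjusted p = 0.0570). Its 20 mM adjusted p was 0.0222 with the second loess, 0.0238 with whole-array loess, 0.0339 without probes below background, 0.0478 with control spots at weight 0 and 0.00147 with median centring. It was 0.180 with plain subtraction, 0.165 with the authors' net intensities and 0.163 with their ratios. Without the first 20 mM array the 3-array mean was -0.13 (adjusted p = 0.244).

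Egr3, needed for muscle spindles, stood at -0.06 at 5 mM and at -0.15 and -0.09 at 20 mM (3-array adjusted p = 0.134). Egr4 stood at 0.02, -0.0014 and -0.13 (adjusted p = 0.591). Thus the second 20 mM array held the low value of Egr2 and Egr4, and the first held that of Egr1 and Egr3. Egr4 was also unequal in brightness between the 5 mM and the 20 mM arrays, with a raw EGFP intensity of 330 at 5 mM and of 1823 and 1761 at 20 mM.

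**Figure D3:**
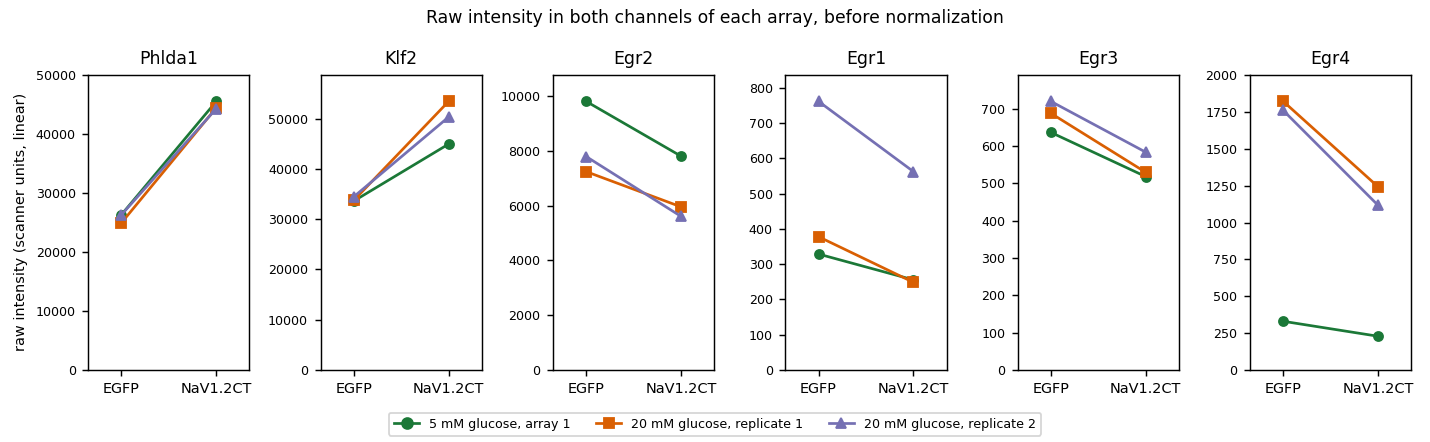
Raw intensity on a linear scale (y axis, scanner units) in the EGFP and NaV1.2CT channels of each array for Phlda1, Klf2 and the 4 Egr genes; a line joins both channels of an array. Phlda1 and Klf2 are brighter in the NaV1.2CT channel on every array, while the 4 Egr genes are dimmer there. Before normalization the median probe is dimmer there too, at 1355 against 1706 in the EGFP channel at 5 mM. Dimmer raw values alone are therefore no sign of a lower ratio, and the normalized ratio of Egr4 at 5 mM is 0.02. Nor are brighter raw values alone a sign of a higher ratio, as the normalized ratio of Klf2 at 5 mM is 0.04.

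The promoters of 3 of these genes show letters that the upstream pathways or the Egr proteins read. The genes are Egr2, which fell, its neighbour in the family Egr4, which did not pass, and Klf2, which was higher at 20 mM. No promoter was available for Phlda1, so it is not printed and lies outside the shares below. Each line gives the 250 bases before a RefSeq start site of GRCm38.p6, read along the gene, with capitals on a CArG box (the serum response factor site), on the CREB core TGACG or its reverse complement CGTCA, and on the Egr site GCGNGGGCG; both strands were searched, and the CREB core and the others do not overlap here. For Egr2, which has 5 start sites in the table, the window with most matches is printed.
Egr2, chr10:67537619-67537868, plus strand: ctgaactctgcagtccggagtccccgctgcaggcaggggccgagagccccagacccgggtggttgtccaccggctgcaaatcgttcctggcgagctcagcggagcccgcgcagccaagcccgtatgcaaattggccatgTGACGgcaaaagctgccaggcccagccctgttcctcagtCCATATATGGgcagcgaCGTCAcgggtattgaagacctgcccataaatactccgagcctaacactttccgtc
Egr4, chr6:85513590-85513839, minus strand: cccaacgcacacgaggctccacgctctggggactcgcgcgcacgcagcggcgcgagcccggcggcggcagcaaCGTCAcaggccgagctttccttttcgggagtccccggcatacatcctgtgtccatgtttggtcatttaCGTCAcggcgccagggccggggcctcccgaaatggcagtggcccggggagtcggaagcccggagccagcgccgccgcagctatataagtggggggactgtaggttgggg
Klf2, chr8:72318812-72319061, plus strand: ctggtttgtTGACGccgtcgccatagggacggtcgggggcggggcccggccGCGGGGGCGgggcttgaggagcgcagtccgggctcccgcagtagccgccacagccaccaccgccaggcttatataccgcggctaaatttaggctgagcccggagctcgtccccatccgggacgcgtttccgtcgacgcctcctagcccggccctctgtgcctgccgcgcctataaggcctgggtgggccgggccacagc
In Egr2 the CArG box begins 72 bases before the start, between CREB cores at 111 and 55 bases. Egr4 has CREB cores at 177 and 109 bases and no CArG box in this window, and Klf2 has a CREB core at 241 and an Egr site at 199 bases. Of the 78 symbols 61 matched a promoter, and a CArG box was found in 1 of them (1.64%, against 1.62% of 27025 genes). The CREB core was found in 28 (45.9%, against 19.8%) and the Egr site in 17 (27.9%, against 5.33%). Only exact matches within the 250 bases were counted, so a CArG box farther upstream or with other letters was not. A gene counted when any of its start site windows held a match, with 32851 windows for the 27025 genes. Genes with more start sites had more chances, and their number was not matched between the 61 symbols and all genes. These are matches of letters and not sites of binding.

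The Klf zinc finger genes, which bind GC and CACCC boxes, had 16 spots, of which 1 rose at 20 mM, where 0.689% of all probes rose, and none passed over 3 arrays. Of the 16 spots 4 lay above 0 on all 3 arrays and 6 below. Klf2, best known for quiescence of endothelium and T cells, held the highest mean. Its raw intensity was 33600 in the EGFP channel and 44938 in the NaV1.2CT channel at 5 mM, and 33738 against 53435 and 34456 against 50318 at 20 mM. As raw values not normalized between arrays, EGFP intensities were alike on the 3 arrays, and the NaV1.2CT intensity was lowest at 5 mM. The highest raw NaV1.2CT intensity of any probe was 65535 on both 20 mM arrays. Whether bright spots such as Klf2 were held down by a scanner ceiling was not tested. The ratios were 0.04 at 5 mM and 0.30 and 0.24 at 20 mM. The 20 mM mean was 0.27 ± 0.046 (SD, n = 2; 95% interval 0.17 to 0.37), a 1.21-fold ratio with a limma adjusted p of 0.0292, and the 3-array mean of 0.19 had an adjusted p of 0.0617.

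Klf2 was brighter still than Phlda1, at the 99.7th percentile. Probes of like brightness had median ratios of 0.0693 at 5 mM and of 0.116 and 0.103 at 20 mM, and Klf2 lay above 43.7%, 85.5% and 81.0% of them. With the second loess its 20 mM ratio was 0.12 and no longer passed (adjusted p = 0.112). It also did not pass with plain subtraction (0.25, adjusted p = 0.155), the authors' net intensities (0.21, adjusted p = 0.177) or their ratios (0.22, adjusted p = 0.150), and median centring gave 0.88. The authors' deposited score for Klf2 was below 0 on each array, at -0.97 for 5 mM and -0.07 and -0.54 for 20 mM, which is the opposite direction to the ratio.

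Klf10 (Tieg1), a transcription factor induced by TGF-beta, had the lowest Klf mean. It stood at -0.04 at 5 mM and at -0.14 and -0.32 at 20 mM (20 mM mean -0.23, adjusted p = 0.0592). Its 20 mM adjusted p was 0.0183 with the second loess, 0.0232 with whole-array loess, 0.0323 without dim probes, 0.0325 without probes below background, 0.0427 with median centring and 0.0488 with control spots at weight 0. It was 0.225 with plain subtraction, 0.218 with the authors' net intensities and 0.206 with their ratios. Without the second 20 mM array the 3-array mean moved from -0.17 to -0.09. Klf4, a reprogramming factor, stood at -0.08, -0.09 and -0.24 (3-array adjusted p = 0.0924), with all 3 arrays below 0. Klf6 stood at 0.07, -0.03 and -0.06 (adjusted p = 0.971). The remaining Klf spots had 3-array means between those of Klf10 and Klf2, and Klf15 was not above background on the first 20 mM array.

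The Fos and Jun genes encode the partners of the AP-1 dimer, and no spot of either passed. Fos, the standard marker of recent neuronal firing, stood at -0.05 at 5 mM and at -0.01 and 0.04 at 20 mM. Its 3-array mean was -0.0069 (95% interval -0.09 to 0.07; adjusted p = 0.927). Its raw EGFP intensity was 9607 at 5 mM and 2223 and 2445 at 20 mM. Both channels shared this gap, for which glucose and array series cannot be told apart. Fosb stood at -0.05, 0.0016 and -0.04. Fosl1 (Fra-1), the highest of the family, stood at 0.01, 0.08 and 0.23 (3-array adjusted p = 0.197). Fosl2 (Fra-2), the lowest, stood above 0 at 5 mM, at 0.10, and below 0 on both 20 mM arrays, at -0.12 and -0.18.

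Jun was dim. It stood at 0.01 at 5 mM and at -0.03 and 0.08 at 20 mM, and it was not above background on the first 20 mM array. Junb stood at 0.07, -0.05 and 0.03 (3-array adjusted p = 0.865). The ratios of both genes changed side between arrays. A further spot, named Fosr in the files and described there as an osteosarcoma-related oncogene, also did not pass.

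The Nr4a genes encode orphan nuclear receptors induced by calcium and cAMP, and none of the 3 passed. Nr4a1 (Nur77) stood at -0.07 at 5 mM and at -0.03 and 0.05 at 20 mM. Nr4a2 (Nurr1), needed for dopamine neurons, stood at 0.07, -0.03 and 0.04. Nr4a3 (Nor1) stood at -0.03, -0.07 and -0.02, the only Nr4a gene below 0 on all 3 arrays. Their 3-array adjusted p-values lay between 0.513 and 0.807.

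Arc, whose protein drives AMPA receptor endocytosis at synapses, stood at -0.17 at 5 mM and at -0.09 and -0.03 at 20 mM. All 3 arrays lay below 0, with a mean of -0.10 ± 0.073 (SD, n = 3; limma adjusted p = 0.169). Bdnf, the neurotrophin whose transcription follows activity, was not well above background on any array. Its raw intensity was 52.1, 63.1 and 49.3 in the EGFP channel and 59.0, 71.9 and 61.3 in the NaV1.2CT channel, so no ratio is given.

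CREB and its relatives relay cAMP and calcium signals to these genes, and none of 10 Creb and Crem spots passed. Creb1 itself has 2 spots, which stood at -0.09, -0.08 and -0.12 and at 0.02, -0.10 and -0.10 at 5 mM and on both 20 mM arrays. The first has the lowest mean of the family (-0.09, 95% interval -0.17 to -0.02; adjusted p = 0.139). Crem, whose short product ICER represses cAMP-induced genes, stood at 0.12, 0.04 and 0.13 (adjusted p = 0.147). The spots of Crebzf, a leucine zipper protein that binds host cell factor, disagreed. One, the highest of the family, stood at 0.15, 0.09 and 0.19 (3-array adjusted p = 0.0615), and the other had a mean of -0.08 (adjusted p = 0.255).

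The Atf genes had 13 spots with no call. Atf3, a stress-induced repressor that rises in injured neurons, stood at 0.03 at 5 mM and at 0.16 and 0.01 at 20 mM (adjusted p = 0.353). Atf4, the factor of the integrated stress response, stood at 0.06, 0.11 and 0.03 (adjusted p = 0.276). Both lay above 0 on all 3 arrays, with 3-array means of 0.07 each. Atf7ip, a chromatin cofactor, had the lowest mean and stood at -0.23, -0.20 and 0.08. The highest was a spot labelled Atf6b at 0.28, 0.11 and 0.08 (adjusted p = 0.08). That spot is 1 of 3 from a long genomic clone whose descriptions name other coding sequences of the class III major histocompatibility region, and the spot described as Atf6b mRNA had a mean of -0.01. The authors' deposited scores were identical for the 3 clone spots on each array although their brightness differed, so those scores are not values of single spots.

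The Mef2 factors, which control synapse number in response to calcium, had 4 spots and no call. Mef2a, the highest, stood at 0.09, 0.03 and 0.13 (3-array adjusted p = 0.190). Mef2c, the lowest, stood at 0.03, -0.12 and 0.04, and Mef2d at -0.11, 0.02 and 0.08. Mef2a alone kept 1 side of 0 on all 3 arrays.

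The Dusp genes encode phosphatases, some of which act on ERK, p38 and JNK, and none of 18 spots passed. Dusp1 (Mkp1), an immediate early gene, was not well above background on any array, nor were Dusp2 and Dusp11. The raw intensity of Dusp1 was 65.7, 54.4 and 56.6 in the EGFP channel and 59.0, 47.7 and 61.3 in the NaV1.2CT channel. Dusp6 (Mkp3), a phosphatase specific to ERK whose RNA follows ERK activity, was bright, with raw EGFP intensities of 7807, 4635 and 5516. It stood at -0.01 at 5 mM and at 0.02 and -0.14 at 20 mM, and its 3-array interval ran from -0.13 to 0.05 (adjusted p = 0.563). Dusp16, a JNK phosphatase, had the lowest mean, with -0.09, -0.09 and -0.04. Dusp18 had the highest, with 0.13, 0.10 and 0.07 (adjusted p = 0.126). The 3-array means of the 18 spots spanned -0.07 to 0.10.

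The Ier genes are short early transcripts of varied function, and none of 5 spots passed. Ier2, a nuclear protein, was not above background at 5 mM and stood at 0.17 and 0.11 at 20 mM, where its mean had an adjusted p of 0.110. Ier3, a regulator of cell survival, stood at 0.10, -0.03 and 0.07. Ier5, the lowest, stood at -0.02, -0.06 and -0.08 (3-array adjusted p = 0.384). Ier3ip1, matched by its symbol, is an endoplasmic reticulum protein and not itself an early gene.

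The ratios at 5 mM minus those at 20 mM give the difference between glucose levels, with the lone 5 mM array assumed to vary like the others. None of the 85 spots passed in limma, where 0.0276% of all probes did (0.0184% higher and 0.00919% lower at 5 mM), and 5 had an unadjusted p under 0.05 (5.88%, against 7.50% of all probes). The differences ran from -0.227 to 0.296. These 5 were Phlda2 (0.30), Fosl2 (0.25), the Atf6b clone spot (0.19), Creb3 (-0.19) and Klf2 (-0.23), with adjusted p-values from 0.552 to 0.620. Creb3 was not above background on the 5 mM array, so its difference rests on a value with no measured level there. The Klf2 ratio passed at 20 mM and has no test at 5 mM alone, and its difference between them did not pass (95% interval of the difference -0.39 to -0.06, unadjusted over probes). Egr1 and Egr2 differed by 0.10 and -0.01.

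Genes of the paths around these regulators were read in the same fits. Of 39 spots for the path from ERK to serum response factor (32 of 34 listed genes had one), 0 passed, with a median of 3-array means of -0.00762. Among all probes 2.11% passed at 20 mM and 3.85% over 3 arrays, so few calls would be looked for in 39 spots. Nothing is read from their absence. Of 43 spots for the path from cAMP and calcium to CREB, 2 fell over 3 arrays (4.65%, where 2.68% of all probes fell) and 0 passed at 20 mM. They were Adcyap1, the neuropeptide PACAP that raises cAMP, at -0.21, -0.13 and -0.22 (mean -0.19, adjusted p = 0.0332), and 1 of 3 spots of Prkar2a, a regulatory subunit of protein kinase A, at -0.15, -0.20 and -0.12 (mean -0.16, adjusted p = 0.0473). The other Prkar2a spots had adjusted p-values of 0.589 and 0.145.

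Among 38 spots for other activity-induced genes, 1 rose and 2 fell at 20 mM (7.89%, against 2.11% of all probes), and 1 fell over 3 arrays (2.63%, against 3.85%). The list was chosen with earlier results known, so nothing is read from these shares. Gem, a small GTPase that limits calcium channels at the membrane, stood at -0.10 at 5 mM and at -0.43 and -0.32 at 20 mM. Its mean was -0.38 at 20 mM (adjusted p = 0.0173) and -0.28 over 3 arrays (adjusted p = 0.0359), with all arrays below 0. Sgk1, a kinase that regulates sodium transport, stood at -0.06, -0.20 and -0.22 (20 mM mean -0.21, adjusted p = 0.0425). Plk3, a stress-responsive kinase, stood at -0.12, 0.17 and 0.29 and was above background on 2 of 3 arrays (20 mM mean 0.23, adjusted p = 0.0440). The 20 mM fit left out the 5 mM array, where Plk3 lay on the other side of 0.

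**Figure D4:**
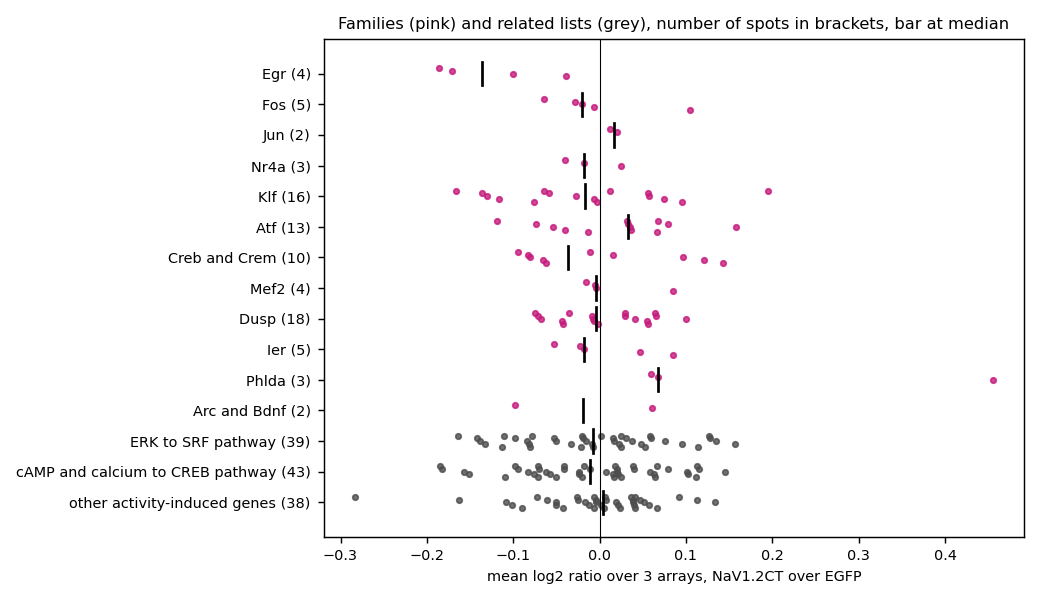
Mean log2 ratio over 3 arrays (x axis) of each spot in the member families (pink) and in 3 related lists (grey), with spot counts in brackets and a bar at each median. The Egr median lies lowest among the families at -0.136, and the medians of the related lists lie between -0.0113 and 0.00333.

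**Figure D5:**
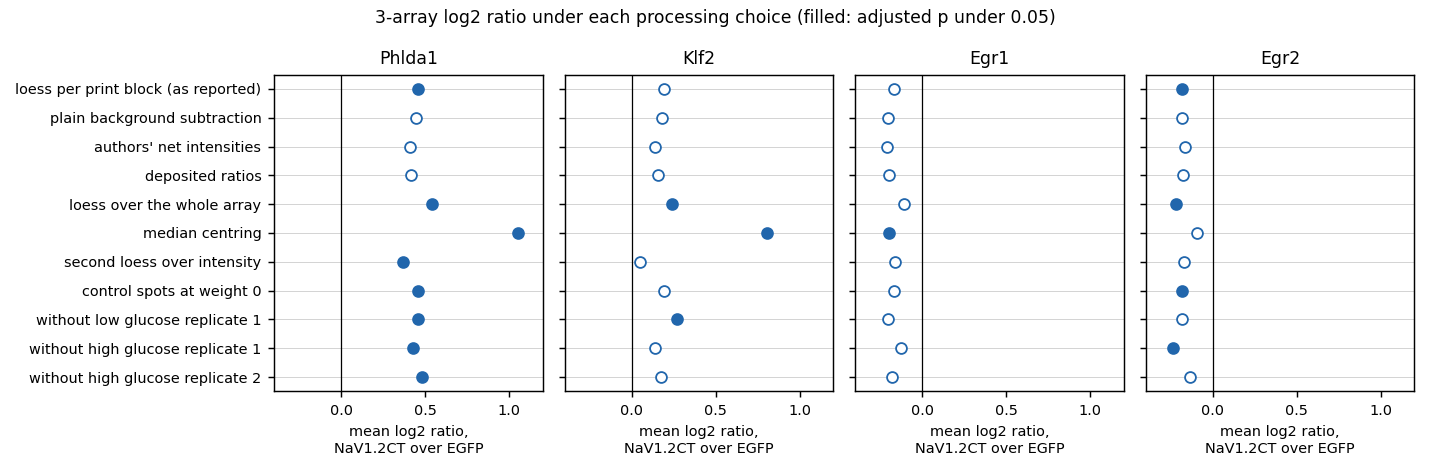
Mean log2 ratio over 3 arrays (x axis) of Phlda1, Klf2, Egr1 and Egr2 under each way of processing (rows); filled points had an adjusted p under 0.05. Phlda1 stays between 0.37 and 1.06 and Egr2 between -0.24 and -0.10, while the Klf2 ratio ranges from 0.05 to 0.81.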

How the data were processed

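Each array gave 1 table. Per the file headers, the authors deposited mean raw and background intensity per spot and channel, net intensity, a ratio of EGFP over NaV1.2CT net intensity (the opposite direction to that used here) and a z-score. How the deposited score was made, the scanner and the software are not given in the sources used here. Raw and background intensities were corrected with limma's normexp method (offset 50). Loess per print block, giving empty spots weight 0, then normalized the log2 ratios. Spots sharing accession and description became 1 of 21761 probes by averaging, with no intensity filter. limma 3.58.1 in R 4.3.3 fitted the 20 mM mean, the 3-array mean and the 5 mM minus 20 mM difference (lmFit, eBayes, two-sided, Benjamini-Hochberg over all probes). These fits had 1, 2 and 1 residual and 7.54, 7.16 and 7.54 prior degrees of freedom. The 5 mM array alone has no test. The fits were also run on simulated data in which the ratio did not bend with brightness, so that run says nothing about the bright end.

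The spots and lists were chosen with earlier results of these data known. Values on each array are given for spots that passed any fit, for the lowest and highest mean of each family, and for a written list of well-known members, within the limit on spots below background. In related lists, the genes named are those that passed. Other backgrounds, normalizations, filters and subsets of arrays were tried. Promoters came from RefSeq (GRCm38.p6), and gene names from the files.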

Additional observations from a re-analysis of the deposited data

How the results depend on the processing

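Calls depended strongly on the processing, and the cause was not tested. At 20 mM, 459 probes and 2 of the 85 spots passed. Plain background subtraction gave 38 and 0, the authors' net intensities 79 and 0, and their ratios 71 and 0. Whole-array loess gave 7648 and 24, median centring 8111 and 29, a second loess 1349 and 5, and leaving out probes below background 791 and 4. GAPDH control spots at weight 0, an alternative chosen after seeing the data, gave 4 spots. Over 3 arrays 837 probes and 2 spots passed. Plain subtraction gave 2 and 0, net intensities 1 and 0, deposited ratios 4 and 0, whole-array loess 7604 and 23, and median centring 8793 and 36. The second loess gave 1 spot, and leaving out probes below background 5. Leaving out 1 array in turn gave 459 to 757 probes: 459 without the 5 mM array, 471 without the first and 757 without the second 20 mM array.

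For the glucose difference, 6 probes and 0 spots passed. Plain subtraction gave 23 probes, net intensities 28, whole-array loess 41, deposited ratios 36, the second loess 44, leaving out dim probes 14, and leaving out probes below background 3. Median centring gave 167 probes and 2 spots. The share of passing probes that were higher was 32.7% at 20 mM, 30.3% over 3 arrays and 66.7% for the difference. At 20 mM it was 42.7% with whole-array loess, 49.6% with median centring and 43.7% with deposited ratios. Over 3 arrays it was 48.8% with median centring, 40.8% without dim probes, and 0 of the 1 to 4 calls with plain subtraction, net intensities and deposited ratios. For the difference it ran from 0 of 3 calls, without probes below background, to 55.6% with control spots at weight 0 and 61.7% with median centring.

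Direction turned in 10 values that were called under the other setting. With whole-array loess, Junb was -0.28 and Klf6 0.11 over 3 arrays. With median centring, Fosl2 was 0.19 and Nr4a3 0.17 at 20 mM, and over 3 arrays Junb was -0.32, Fosl2 0.35, Nr4a1 0.16, Klf6 0.14, Fos 0.14 and Nr4a3 0.18. Each log2 ratio already pairs both RNAs of an array, so the fits compared NaV1.2CT with EGFP within arrays. Arrays could not be paired across glucose levels, because only the 20 mM arrays carry replicate numbers. With 1 array left at 20 mM, or with 1 left in each group for the difference, values have no test.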
